A study of Mus musculus with 16 samples.

Results

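Transcripts of 9 genes that guide monocytes from the blood into tissue were followed in tumors of the mouse peritoneal cavity. The genes were listed by name, with earlier results of these data known. They were the ligands Ccl2, Ccl7, Ccl12, Ccl8, Ccl3, Ccl4 and Cx3cl1 and the receptors Ccr2 and Cx3cr1, 9 of the 22298 genes in the count files. All 9 were among the 16817 genes that had at least 10 counts over the 16 tumors and were tested. MFC cells, a murine gastric cancer line, had been injected into the abdomen of syngeneic wild-type mice aged 6 weeks. The vehicle group then received PBS, and the IL-33 treatment group received IL-33 at 20 μg/kg every 2 days into the same cavity (n = 8 tumors per group). Both groups thus carried MFC tumors and were injected on the same schedule, and the sex of each mouse was not given in the labels. The study's methods name fewer mice per group than tumors sequenced and no label ties a tumor to a mouse, so that tumors may share a mouse and p-values measure the spread between tumors.

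Chemokines are small secreted proteins that direct leukocytes by way of receptors coupled to G proteins. Ccl2, Ccl7 and Ccl12 encode ligands of CCR2, the receptor by which classical monocytes leave the bone marrow and enter inflamed tissue, and Ccl8 lies beside them in the same gene cluster. Ccl3 and Ccl4 encode inflammatory chemokines, CCL3 being a ligand of CCR1, while Cx3cl1 encodes fractalkine, a chemokine held on the cell surface by a mucin stalk and released by proteases, whose receptor CX3CR1 marks nonclassical monocytes and many tissue macrophages.

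The files held from 14139268 to 24290794 counted reads for a vehicle tumor and from 16569613 to 24288893 for a tumor given IL-33. IL-33 replicate 7 stood apart, with a summed level of 10 ovary genes of 1047 CPM (counts scaled to the total count of the tumor) where no other tumor exceeded 8.22 CPM, and of 7 fibroblast genes of 14503 CPM. The fold changes of the 9 genes are therefore given with and without it. In vehicle replicate 4 the scaling factor was lowest, at 0.640, and 7 neutrophil genes summed to 472 CPM, the highest of the 16. The labels call the tissue MFC tumor, a gastric cancer. The epithelial keratin genes Krt8 and Krt19 were at 543 ± 231 and 184 ± 167 CPM (SD, n = 8) in the vehicle group, while Epcam and Krt18 lay at 0.337 ± 0.218 and 0.614 ± 0.617 CPM (SD, n = 8), and the median of Krt5 over the 16 tumors was 0.

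By the quasi-likelihood test of edgeR, 0 of the 9 genes differed between the groups at an unadjusted p under 0.05, while 11.2% of all genes tested did (1680 with a higher and 196 with a lower level after IL-33). After Benjamini-Hochberg adjustment over all genes, 0 of the 9 and 0.0% of all genes were under 0.05, and the adjusted p of the 9 lay between 0.462 and 0.985. Without IL-33 replicate 7 the count of the 9 was again 0, beside 4.12% of all genes (289 higher and 362 lower). The estimates from edgeR were 4 above and 5 below 0 on the log2 scale, with a median of −0.09 beside 0.06 over all genes. An exact permutation test of log2(CPM + 0.5) over the 12870 assignments of 8 tumors to a group (two-sided, smallest possible p = 0.0001554) gave p between 0.169 and 0.921 for the 9 genes and an adjusted p of 1 for each (edgeR and the permutation test call 0 genes after adjustment, and the latter puts 456 of 16817 under an unadjusted 0.05). Over all tumors none of the 9 intervals of the difference lay wholly within 1 log2 unit of 0. A 2-fold difference, in 1 direction or the other, thus lay within the interval of each. Without IL-33 replicate 7 the interval of Ccl2, from −0.70 to 0.89, lay within 1 log2 unit, and those of the other genes did not.

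**Figure D1:**
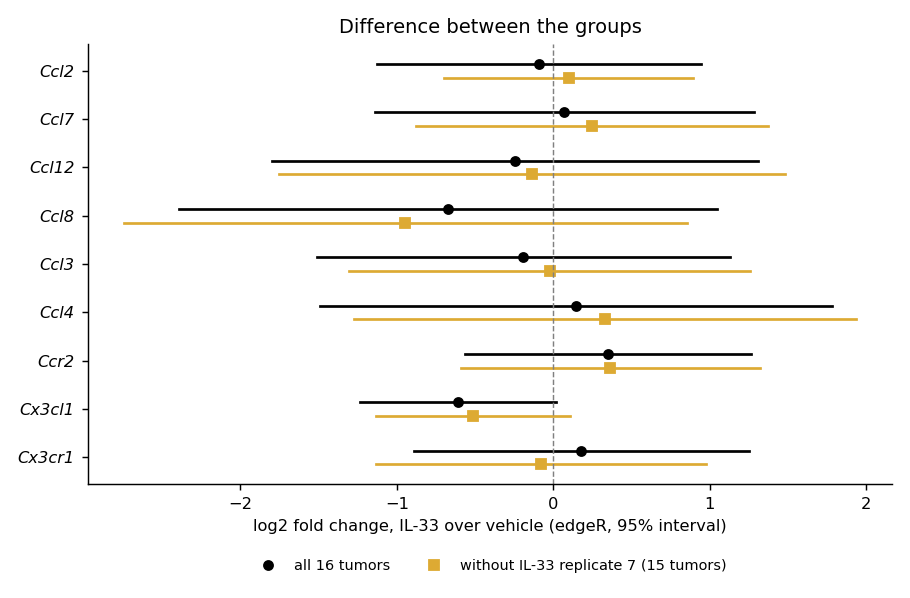
Log2 fold change of each gene, IL-33 over vehicle, from edgeR with its 95% interval, for all 16 tumors (black circles) and for the 15 tumors without IL-33 replicate 7 (yellow squares). Every interval crosses 0, the closest to leaving it being that of Cx3cl1, from −1.23 to 0.02 over all tumors.

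The ligand genes have the cysteine signature of their families in their second exon. The stretch of 30 coding bases around it is shown for 6 of them, 5′ to 3′ on the gene's strand from the GENCODE M21 transcripts of GRCm38, because it sets the CC chemokine genes, where both codons are adjacent, apart from Cx3cl1, where 3 codons separate them. The cysteine codons are in capitals.
Ccl2, chr11:82036494-82036523: gccccactcaccTGCTGCtactcattcacc
Ccl7, chr11:82046526-82046555: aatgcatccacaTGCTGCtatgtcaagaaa
Ccl12, chr11:82102622-82102651: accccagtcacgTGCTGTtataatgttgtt
Ccl8, chr11:82116044-82116073: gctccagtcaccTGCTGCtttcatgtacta
Ccl4, chr11:83663470-83663499: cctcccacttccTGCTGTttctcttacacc
Cx3cl1, chr8:94778042-94778071: atgacgaaaTGCgaaatcatgTGCgacaag
The 6 CC chemokine genes are relatives, and the coding bases of Ccl12 and Ccl8 were identical at 70.5% of 288 aligned positions, the highest of the 15 pairs. No stretch of 50 bases was shared by the transcripts of any pair, so that reads of that length without mismatches belong to 1 of them.

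Ccl2 (ENSMUSG00000035385, chr11:82035571-82037453 of GRCm38, plus strand) encodes the main attractant of classical monocytes. In the vehicle group its level was lowest at 111 CPM, 184 CPM at the median and highest at 260 CPM. In the IL-33 treatment group it ran from 13.96 CPM over a median of 172 CPM to 433 CPM. The vehicle tumors lay within a 2.35-fold range and the IL-33 tumors spanned 31.0-fold, with 3 of the 8 (replicates 3, 4 and 8) above every vehicle tumor and 3 (replicates 5, 6 and 7) below every one. The group means were nearly equal, at 185 ± 57.9 and 185 ± 145 CPM (SD, n = 8). The log2 fold change was −0.09 (edgeR, SE 0.49, adjusted p = 0.974) and 0.10 without IL-33 replicate 7 (edgeR, SE 0.38, adjusted p = 0.980).

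Ccl7 (ENSMUSG00000035373, chr11:82045712-82047525, plus strand), whose product also binds CCR2, had the same layout. Vehicle tumors had 42.9 CPM at the lowest, 89.1 CPM at the median and 168 CPM at the highest, against 11.7, 70.1 and 365 CPM in IL-33 tumors. Replicates 3 and 4 of the IL-33 treatment group were above every vehicle tumor and 3 of its tumors were below, again replicates 5, 6 and 7. The log2 fold change of 0.07 (edgeR, SE 0.57, adjusted p = 0.985) was 0.25 without IL-33 replicate 7 and −0.51 when replicate 3 of the same group, the tumor with the highest level, was left out. In the latter fit edgeR gave an unadjusted p of 0.333.

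Ccl12 (ENSMUSG00000035352, chr11:82101845-82103400, plus strand), a mouse CCR2 ligand without a human counterpart of the same name, had 1 IL-33 tumor far above the other 7. Its vehicle levels ranged from 5.58 CPM over a median of 22.0 CPM to 30.8 CPM. In IL-33 tumors they ranged from 0.973 CPM over a median of 7.37 CPM to 99.6 CPM, the last in replicate 3. The other 7 IL-33 tumors had at most 11.4 CPM and lay below the vehicle mean of 19.1 ± 9.74 CPM (SD, n = 8), and 3 of them lay below every vehicle tumor. With all tumors the log2 fold change was −0.24 (edgeR, SE 0.74, adjusted p = 0.949), or −0.14 with IL-33 replicate 7 left out. Without IL-33 replicate 3 it was −1.78 (edgeR, SE 0.49, unadjusted p = 0.0023, adjusted p = 0.366), and limma voom with sample quality weights gave −1.20 over all 16 tumors (standard error 0.54, unadjusted p = 0.0394, adjusted p = 0.824). Over all alternatives the adjusted p lay between 0.366 and 1.00, and without both IL-33 replicate 7 and vehicle replicate 4 the log2 fold change was 0.11. The exact permutation test on log2(CPM + 0.5) gave a difference of means of −1.03 (p = 0.169).

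Ccl8 (ENSMUSG00000009185, chr11:82115185-82116799, plus strand), a CC chemokine made by macrophages in many tissues, varied most within the vehicle group among the CCR2 ligand cluster. Its level there was 16.8 CPM at the lowest, 57.5 CPM at the median and 385 CPM at the highest, in replicate 7. IL-33 tumors had 7.35 CPM at the lowest, 22.2 CPM at the median and 290 CPM at the highest. The groups overlapped over most of their range, with 3 IL-33 tumors below every vehicle tumor and 0 above. IL-33 replicate 7, which was lowest of the 16 for Ccl2, had the next highest level of Ccl8 after those of vehicle replicate 7 and IL-33 replicate 3, at 192 CPM. The log2 fold change was −0.67 (edgeR, SE 0.82, adjusted p = 0.826), −0.95 without IL-33 replicate 7. With other tumors left out it ran from −1.53 (IL-33 replicate 3, edgeR, unadjusted p = 0.0660) to −0.09 (vehicle replicate 7).

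**Figure D2:**
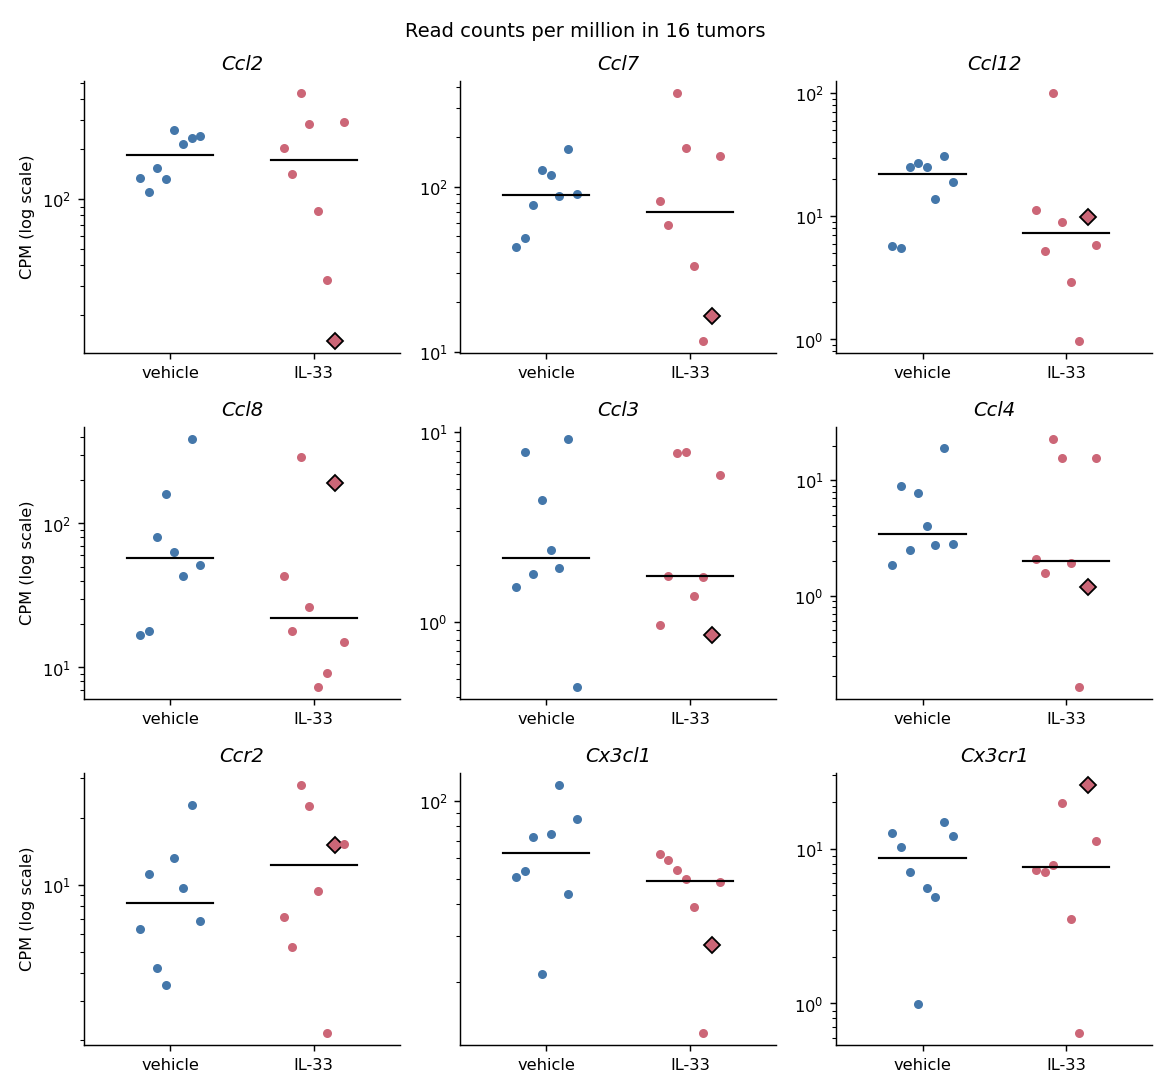
CPM of each gene in the 8 vehicle (blue) and 8 IL-33 tumors (red) on log axes that differ between panels, with the group median as a line and IL-33 replicate 7 as an outlined diamond. For Ccl2 and Ccl7 the IL-33 tumors lie on both sides of the vehicle tumors, and for Ccl12 a single IL-33 tumor, at 99.6 CPM, lies above all others.

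Ccl3 (ENSMUSG00000000982, chr11:83647844-83649355, minus strand) encodes an inflammatory chemokine of macrophages and lymphocytes. It was low in both groups, with 0.453, 2.16 and 9.20 CPM as lowest, median and highest vehicle levels and 0.855, 1.74 and 7.89 CPM as those of IL-33 tumors. No IL-33 tumor was outside the vehicle range, and the estimated log2 fold change was −0.19 (edgeR, SE 0.63, adjusted p = 0.954), or −0.02 with IL-33 replicate 7 left out.

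Ccl4 (ENSMUSG00000018930, chr11:83662584-83664683, plus strand), its neighbor, which encodes another inflammatory chemokine, ranged from 1.83 CPM over a median of 3.41 CPM to 18.9 CPM in the vehicle group. In the IL-33 treatment group it ranged from 0.162 CPM, 3 counts in replicate 6, over a median of 2.01 CPM to 22.7 CPM. IL-33 replicates 3, 4 and 8 had 22.7, 15.7 and 15.5 CPM and the other 5 had at most 2.09 CPM, with no tumor in between. Between the groups the estimate was a log2 fold change of 0.14 (edgeR, SE 0.78, adjusted p = 0.974), or 0.33 with IL-33 replicate 7 left out. Summed CPM of 9 T and NK cell markers was 133, 162 and 140 CPM in these 3 tumors, between 19.8 and 52.5 CPM in the other 5 IL-33 tumors and 149 CPM in vehicle replicate 7, which had the highest vehicle levels of Ccl3 and Ccl4. The order did not hold throughout, since vehicle replicate 2 had the next highest vehicle levels, 7.91 and 8.95 CPM, with a marker sum of 42.9 CPM, and vehicle replicate 6 had a marker sum of 85.4 CPM with 2.78 CPM of Ccl4. The part of these cells in the levels was not tested.

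Ccr2 (ENSMUSG00000049103, chr9:124101950-124113557, plus strand) encodes the receptor of CCL2, CCL7 and CCL12. Its vehicle levels ran from 3.54 CPM over a median of 8.26 CPM to 22.7 CPM and its IL-33 levels from 2.16 CPM over 12.2 CPM to 28.0 CPM. The groups overlapped, with 1 IL-33 tumor (replicate 3) above and 1 (replicate 6) below every vehicle tumor. On the log2 scale IL-33 tumors differed from vehicle tumors by 0.35 (edgeR, SE 0.43, adjusted p = 0.832) and 0.36 without IL-33 replicate 7. It stayed above 0 with any tumor left out, from 0.07 (IL-33 replicate 3 left out) to 0.63 (vehicle replicate 7 left out). In whole tumors, a difference in the number of cells of a type and one in RNA per cell cannot be told apart, for this receptor as for the ligands.

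Cx3cl1 (ENSMUSG00000031778, chr8:94772009-94782427, plus strand), the fractalkine gene, was the closest of the 9 to the threshold. In the vehicle group it had 21.4 CPM at the lowest, in replicate 4, 63.1 CPM at the median and 115 CPM at the highest. In the IL-33 treatment group it had 12.7 CPM at the lowest, 49.1 CPM at the median and 62.1 CPM at the highest. The ranges overlapped, yet the vehicle mean was exceeded in 0 of the 8 IL-33 tumors. The means were 64.7 ± 28.7 and 44.1 ± 16.8 CPM (SD, n = 8 per group). The log2 fold change was −0.61 (edgeR, SE 0.30, unadjusted p = 0.0557, adjusted p = 0.462) and −0.51 without IL-33 replicate 7 (edgeR, unadjusted p = 0.09998). It lay between −0.71 and −0.43 in the 16 fits without 1 tumor, and the unadjusted p from edgeR was under 0.05 in 4 of them, down to 0.0298 without vehicle replicate 4. DESeq2 gave an unadjusted p of 0.0421 and limma voom of 0.0234, with adjusted p of 1.00 and 0.774. By exact permutation p was 0.169 for log2(CPM + 0.5), and 0.0757 when CPM was scaled by the TMM factors.

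Cx3cr1 (ENSMUSG00000052336, chr9:119901616-120069879, minus strand), the fractalkine receptor gene, spans several other genes, and 78 of its 4505 exon bases are shared with exons of Gm33858. Vehicle tumors had 0.990 CPM at the lowest, 8.68 CPM at the median and 14.8 CPM at the highest, against 0.649, 7.56 and 25.8 CPM in IL-33 tumors. The lowest levels were those of IL-33 replicate 6 and vehicle replicate 4, with 12 and 14 counts, and the highest that of IL-33 replicate 7. Its log2 fold change was 0.18 over all tumors (edgeR, SE 0.51, adjusted p = 0.947) and −0.08 without IL-33 replicate 7.

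The same tumors stood at the ends for most of the genes. IL-33 replicate 6 was lowest of the 16 for 6 of the 9 genes and among the lowest 3 for 8. The share of all genes lowest in that tumor was not computed. Its scaling factor of 0.895, which CPM do not include, would raise its levels. IL-33 replicate 3 was highest for 5, Ccl2, Ccl7, Ccl12, Ccl4 and Ccr2, and vehicle replicate 7 for Ccl8 and Ccl3. Summed CPM of 12 macrophage markers was 797 in IL-33 replicate 6, the lowest of the 16, and 3065 and 3149 in IL-33 replicate 3 and vehicle replicate 7, the 2 highest. Summed CPM of 9 classical monocyte markers did not follow that order, with 4865 in IL-33 replicate 6, 2386 in IL-33 replicate 3 and 1862 in vehicle replicate 7, and Fn1, which stromal cells also express, had the highest mean of the 9, 3127 CPM over the 16 tumors. The part of cell make-up in these levels was not tested. The SD of log2(CPM + 0.5), with IL-33 replicate 7 included, was larger in the IL-33 treatment group for 8 of the 9 genes. For Ccl2 it was 1.70 against 0.47. This was not tested, and the share of all genes with a larger SD in that group was not computed. The variation between tumors of a group, as edgeR's biological coefficient of variation, was 41.8% for Cx3cl1 and between 60.5% and 104% for the other 8, beside a median of 35.4% over 13156 genes of at least 1 CPM on average.

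**Figure D3:**
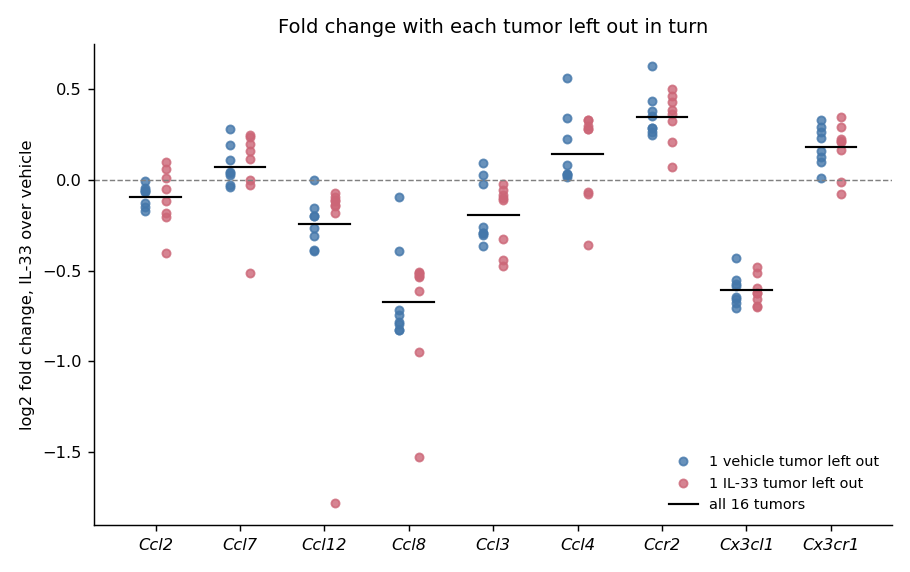
Log2 fold change of each gene from edgeR with each of the 16 tumors left out in turn, blue for a vehicle and red for an IL-33 tumor, with the value over all 16 tumors as a line. Cx3cl1, Ccl8 and Ccl12 stay below 0 and Ccr2 above 0 in all 16 fits. Ccl12 reaches −1.78 when IL-33 replicate 3 is left out and −0.0024 when vehicle replicate 4 is.

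To compare levels between genes, CPM was divided by the exon length in kilobases (kb). By the median over 16 tumors the order was Ccl2 (157 CPM per kb), Ccl7 (106), Ccl8 (84.6), Ccl12 (19.7), Cx3cl1 (13.3), Ccl4 (4.22), Ccl3 (2.41), Cx3cr1 (1.68) and Ccr2 (1.41). Ccl8 was above Ccl12 in 16 of the 16 tumors and Ccl4 above Ccl3 in 15. The other neighbors changed places, the upper of the pair leading in 12 tumors for Ccl2 over Ccl7, in 10 for Ccl7 over Ccl8 and in 9 each for Ccl12 over Cx3cl1 and for Cx3cr1 over Ccr2. The ligands of CCR2 thus stood well above their receptor gene on this scale.

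Within the cluster of Ccl2, Ccl7, Ccl12 and Ccl8 the make-up of the transcripts differed between tumors, a comparison chosen after the values were seen and given without a test. As shares of their summed CPM per kb, Ccl2 made up 16.7% to 54.6% in vehicle tumors and 2.87% to 54.9% in IL-33 tumors, and Ccl8 made up 15.4% to 61.5% and 6.00% to 88.04%. In the IL-33 tumors other than replicate 7, Ccl2 made up 23.9% to 54.9% and Ccl8 6.00% to 35.7%. Ccl8 exceeded Ccl2 per kb in 5 tumors, 3 of the vehicle and 2 of the IL-33 treatment group. The ratio of Ccl8 to Ccl2 was 30.7 in IL-33 replicate 7 and at most 3.69 elsewhere. The share of Ccl7 ran from 17.1% to 30.1% in vehicle tumors and from 23.2% to 40.3% in the IL-33 tumors other than replicate 7, where it was 4.82%. Ccl12 made up 7.06% at the median of the vehicle group and 4.00% at that of the IL-33 treatment group.

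**Figure D4:**
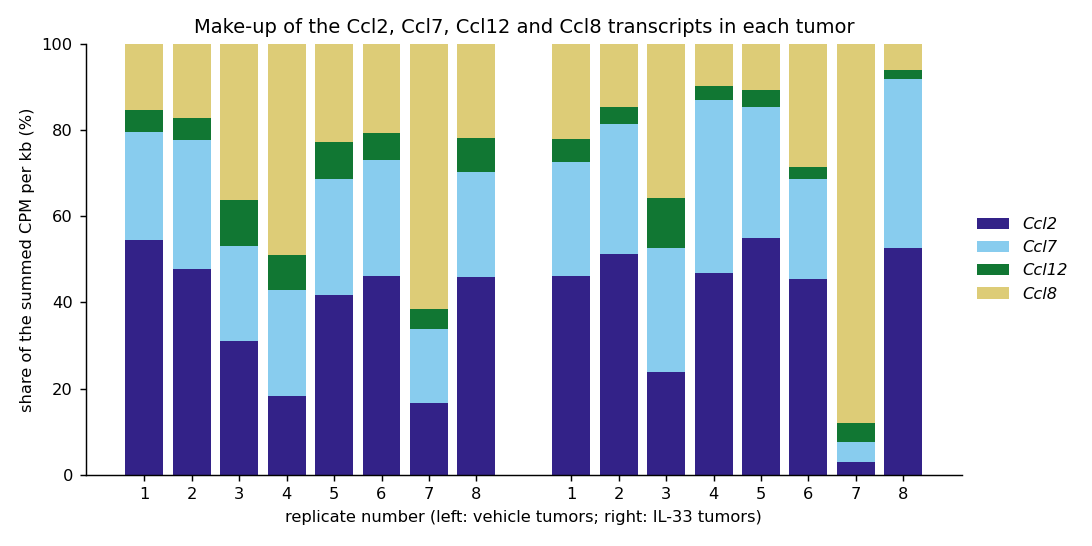
Shares of Ccl2, Ccl7, Ccl12 and Ccl8 in their summed CPM per kb (y axis, percent) for each vehicle tumor (left) and IL-33 tumor (right) by replicate number. Ccl8 fills 88.04% of the bar of IL-33 replicate 7 and 61.5% of that of vehicle replicate 7, while Ccl2 is the largest share in most other tumors.

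Over the 16 tumors 35 of the 36 pairs of genes had a positive Pearson's r of log2(CPM + 0.5), and 9 had an adjusted permutation p under 0.05 (100000 resamples, Benjamini-Hochberg over 36 pairs). By Spearman's rho 8 pairs passed, 7 of them among the 9. The share over pairs of all genes was not computed, so these counts are not shown to be particular to the 9 genes. The CPM used here do not include the scaling factors. Ccl2 and Ccl7 had r = 0.91 (permutation p = 1e-05, the smallest the resamples can give, adjusted p = 0.00024) and rho = 0.88 (permutation p = 4e-05, adjusted p = 0.00048), and r was 0.89 without the 2 tumors farthest from the median of Ccl2. Ccl12 and Ccl8 had r = 0.86 (permutation p = 2e-05, adjusted p = 0.00024) and rho = 0.90 (permutation p = 3e-05, adjusted p = 0.00048), with r = 0.84 without the 2 farthest tumors. Ccl3 and Ccl4 had r = 0.85 (permutation p = 8e-05, adjusted p = 0.00072) and rho = 0.80 (permutation p = 0.00040, adjusted p = 0.0036), with r = 0.82 without the 2 farthest.

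Ccl7 and Ccl4, which lie farther apart on chromosome 11, had r = 0.86 (permutation p = 2e-05, adjusted p = 0.00024) and rho = 0.89 (permutation p = 1e-05, adjusted p = 0.00036), with r = 0.79 without the 2 farthest tumors, 0.54 within the vehicle group and 0.93 within the IL-33 treatment group (exact permutation, adjusted p = 0.508 and 0.0134). Within the vehicle group r was 0.65, 0.89 and 0.88 for Ccl2 with Ccl7, Ccl12 with Ccl8 and Ccl3 with Ccl4 and within the IL-33 treatment group 0.94, 0.85 and 0.88. By exact permutation in each group, with adjustment over 36 pairs, p for these 3 pairs was 0.508, 0.0270 and 0.0270 among vehicle tumors and 0.0089, 0.0134 and 0.0821 among IL-33 tumors. Ccl2 and Ccl8, in the same cluster, had r = 0.15 (permutation p = 0.586, adjusted p = 0.639) over 16 tumors and 0.58 (permutation p = 0.0228, adjusted p = 0.0456) without IL-33 replicate 7. Over 16 tumors Ccr2 correlated with Ccl4 (r = 0.73, rho = 0.67, permutation adjusted p = 0.0090 and 0.0281) and Cx3cr1 (r = 0.69, rho = 0.59, permutation adjusted p = 0.0129 and 0.0606). Neither pair passed within a group. For Ccl4 exact permutation gave adjusted p of 0.508 among vehicle and 0.0645 among IL-33 tumors, and for Cx3cr1 0.508 and 0.0883. With its own ligand gene Ccl2, Ccr2 had r = 0.38 (permutation adjusted p = 0.222) and r = 0.75 without IL-33 replicate 7 (permutation adjusted p = 0.0042). Cx3cl1 and its receptor gene had r = 0.47 and rho = −0.0029 (permutation adjusted p = 0.137 and 0.995), and r was −0.50 without IL-33 replicate 6 and vehicle replicate 4, the 2 tumors farthest from the median of Cx3cl1, and 0.65 without IL-33 replicate 7, where rho was 0.11 (permutation adjusted p = 0.0269 and 0.746). Without IL-33 replicate 7, 18 pairs passed, among them each of the 9. The share over pairs of all genes was again not computed.

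**Figure D5:**
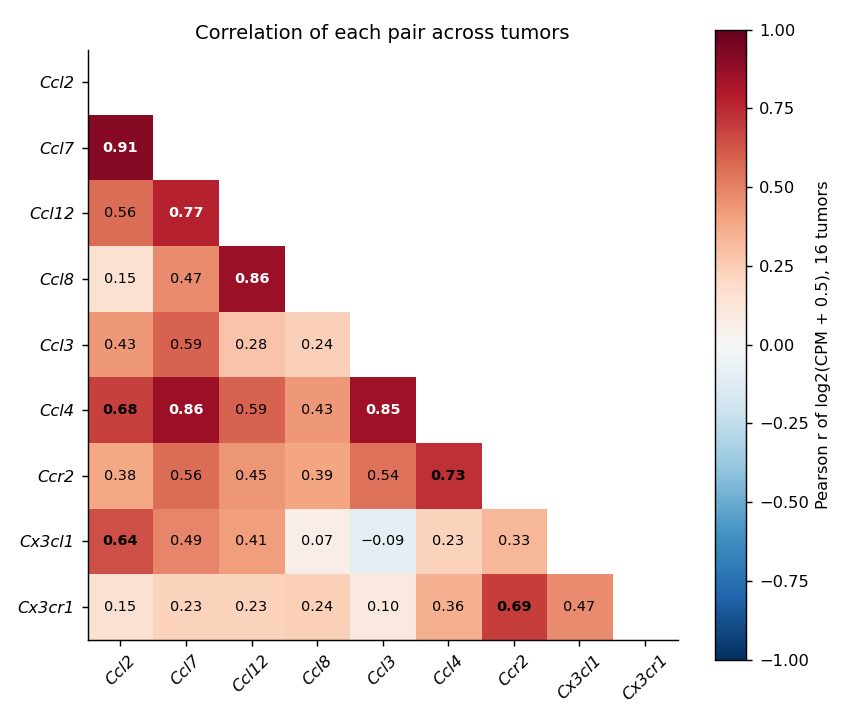
Pearson's r of log2(CPM + 0.5) over 16 tumors for each of the 36 pairs, on a scale from −1 (blue) to 1 (red), in bold where the adjusted permutation p is under 0.05. The highest values are 0.91 for Ccl2 with Ccl7 and 0.86 for Ccl12 with Ccl8 and for Ccl7 with Ccl4.

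For Ccl12 and Ccl8, the pair with the highest rho, the 100 bases before the transcription start are shown from RefSeq on GRCm38.p6, 5′ to 3′ on the plus strand, with the TATA box in capitals.
Ccl12, chr11:82101745-82101844: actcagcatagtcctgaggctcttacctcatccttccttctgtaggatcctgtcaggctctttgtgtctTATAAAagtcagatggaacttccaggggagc
Ccl8, chr11:82115085-82115184: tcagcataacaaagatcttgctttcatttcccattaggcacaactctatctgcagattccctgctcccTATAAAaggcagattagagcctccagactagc
The TATA box, searched as TATAAA on both strands, began 31 and 32 bases before the start and was held by 12.4% of 32817 RefSeq windows of 250 bases before a start. The window of Cx3cl1 held it too, while those of Ccl3, Ccr2 and Cx3cr1 did not. The 100 bases shown for Ccl12 and Ccl8 were identical at 32 matching positions. The NF-κB consensus, the AP-1 motif TGANTCA and the STAT motif TTCNNNGAA were each searched on both strands over the same 250 bases, where 3.90%, 6.75% and 7.01% of all windows held a match. No match was found in the windows of Ccl12, Ccl8, Ccl3, Ccr2, Cx3cl1 and Cx3cr1, the 6 of the 9 genes with a window, which says only that these letters are not there.

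Outside the set, the genes whose levels ranked most like each of 3 members were picked from 13100 tested genes of at least 1 CPM on average, by Spearman's rho over the 16 tumors and with no test. Taking the highest of so many genes raises rho by itself, by an amount that was not computed. For Ccl2 they were Gm15922 (0.87), Arpc1b (0.86), Skap2 (0.86), Slc35b1 (0.85) and Ormdl2 (0.84). For Ccr2 they were Uba7 (0.97), Tgfbi (0.95), Zup1 (0.95), Apol7b (0.94) and Rnase6 (0.94). For Cx3cr1 they were Fbxo22 (0.95), Tmem87a (0.95), Wdr4 (0.94) and Coq5 (0.94).

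Of 13 other CC chemokine ligand genes 11 were tested, and 1 was higher and 1 lower at an unadjusted p under 0.05, beside 11.2% of all genes, with a median log2 fold change of 0.02 beside 0.06 over all genes. Without IL-33 replicate 7 the median was −0.29, with 0 of 10 higher and 1 lower, beside 4.12% of all genes. Ccl1, a ligand of CCR8, was the lower one, with 24 counts over the 16 tumors (0.141 ± 0.251 and 0.0247 ± 0.0350 CPM in vehicle and IL-33 tumors, SD, n = 8, edgeR, unadjusted p = 0.0466, adjusted p = 0.437). Ccl28, a mucosal chemokine gene, was the higher one, with 0 counts in each vehicle tumor and 6.44 CPM in IL-33 replicate 7, and could not be tested without that tumor. The myeloid chemokine genes Ccl6 and Ccl9 were at 109 ± 42.7 and 59.8 ± 16.9 CPM in the vehicle group and 119 ± 116 and 67.0 ± 38.8 CPM in the IL-33 treatment group (SD, n = 8). IL-33 replicate 7 alone had 354 and 132 CPM, the highest of the 16 tumors for both, and their log2 fold changes were −0.09 and 0.02 with it and −0.46 and −0.12 without it.

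Among 7 other receptors and decoys of these ligands, 1 was higher and 0 lower, beside 11.2% of all genes. Without IL-33 replicate 7, 1 was higher and 1 lower, beside 4.12% of all genes. The median log2 fold change was 0.06 over all tumors and −0.93 without that tumor. Ccrl2, which encodes a chemerin-binding atypical receptor found on activated myeloid cells, was higher at the unadjusted threshold, with 2.58 ± 1.29 CPM in vehicle and 5.10 ± 2.54 CPM in IL-33 tumors (SD, n = 8 per group). Its log2 fold change was 0.88 (edgeR, SE 0.34, unadjusted p = 0.0204, adjusted p = 0.418) and 0.82 without IL-33 replicate 7 (edgeR, unadjusted p = 0.0259, adjusted p = 0.964), and 6 of the 8 tumors given IL-33 exceeded the vehicle mean. Ccr1, a receptor gene for CCL3, had a log2 fold change of 0.06 (edgeR, unadjusted p = 0.778). Without IL-33 replicate 7 the decoy receptor gene Ackr2 was lower, at −1.12 (edgeR, unadjusted p = 0.0354, adjusted p = 0.964), against −0.04 over all tumors.

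In the 8 genes of fractalkine release and receptor signaling, 0 passed in either direction, beside 11.2% of all genes. Gnai2, which encodes a G protein subunit of chemokine receptor signaling, had the highest level, 499 ± 63.1 and 525 ± 55.1 CPM (SD, n = 8 per group). The sheddase genes Adam10 and Adam17 were at 135 ± 44.4 and 76.2 ± 22.3 CPM in the vehicle group and 128 ± 19.8 and 79.7 ± 17.6 CPM in the IL-33 treatment group (SD, n = 8). Of 10 genes for cytokines that induce monocyte chemokines and their receptors 8 were tested and 0 passed, beside 11.2% of all genes. Il33 itself was at 366 ± 152 and 386 ± 270 CPM and its receptor gene Il1rl1 at 766 ± 311 and 626 ± 287 CPM (SD, n = 8 per group), so that both were transcribed in vehicle tumors, and Il1rl1 was lowest in IL-33 replicate 7, at 37.1 CPM. Among 7 genes of myeloid growth factors and their receptors 1 passed, beside 11.2% of all genes, and 0 without IL-33 replicate 7, beside 4.12%. It was Csf2rb, which encodes the shared receptor chain of GM-CSF, IL-3 and IL-5. It was higher at the unadjusted threshold, with a log2 fold change of 0.57 (edgeR, SE 0.25, unadjusted p = 0.0359, adjusted p = 0.420), and had 0.39 without IL-33 replicate 7 (edgeR, unadjusted p = 0.101).

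The cells that these chemokines attract were read from fixed marker lists. None of 9 classical monocyte, 7 nonclassical monocyte and 12 macrophage markers passed over all 16 tumors, beside 11.2% of all genes. Their median log2 fold changes were −0.07, 0.09 and −0.02. Of the 9 classical monocyte markers 5 had a log2 fold change below 0, the lowest being that of F13a1, at −0.57 over all tumors and −0.86 without IL-33 replicate 7 (edgeR, unadjusted p = 0.286 and 0.112). Without that tumor 2 of the 9 were higher and 0 lower, beside the 4.12% of all genes, and the median of the list was 0.06. Ly6c2, the antigen by which mouse classical monocytes are sorted, was at 24.9 ± 28.8 and 72.2 ± 77.6 CPM (SD, n = 8 per group), with log2 fold changes of 1.48 over all tumors and 1.68 without IL-33 replicate 7 (edgeR, unadjusted p = 0.0634 and 0.0304). Itgam, an integrin gene of myeloid cells and 1 of the 12 macrophage markers, had 0.60 and 0.74 (edgeR, unadjusted p = 0.118 and 0.0446). It was the only 1 of the 12 to pass without IL-33 replicate 7, beside 4.12% of all genes. The adjusted p of Ly6c2 and Itgam without IL-33 replicate 7 was 0.964 each. Of 7 neutrophil and 9 T and NK cell markers 0 passed over all tumors, beside 11.2% of all genes. Without IL-33 replicate 7, 1 of the T and NK cell markers, Klrb1c, was higher, beside 4.12% of all genes (log2 fold change 0.96, edgeR, unadjusted p = 0.0195, adjusted p = 0.964). The median log2 fold changes of these 2 lists were −0.60 and 0.17 over all tumors and −0.69 and 0.36 without that tumor.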

How the data were processed

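RNA selected by poly(A) from 16 tumors was sequenced by a company. The authors deposited 1 table of raw read counts per gene for each tumor. The submitters' processing notes name HISAT2, featureCounts and mm10, with no versions, and annotation release and strand are not given in the sources used here. Samples were grouped by their titles. GENCODE M21 (GRCm38) gave symbols and positions for 22255 of the 22298 gene identifiers.

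A gene was kept if its counts over the 16 tumors summed to 10 or more, and edgeR 4.0.16 in R 4.3.3 was run on the kept genes (TMM, glmQLFit, glmQLFTest, Benjamini-Hochberg adjustment). Single genes were also compared by an exact permutation test of log2(CPM + 0.5), a pseudocount that understates changes of low genes. Alternatives were DESeq2 1.42.0, limma 3.58.1 voom with quality weights, upper-quartile factors, other filters, the replicate number as a block and tumors left out. No library was a copy of another, the closest pair having a chi-square of 8.79 per degree of freedom. At this depth counting error matters for genes of a few reads. Scripts were tested on simulated counts.

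The 9 genes and all lists were chosen with earlier results of these data known. Named beyond them are list members under an unadjusted p of 0.05, otherwise those of the highest mean CPM, and the 5 genes most like Ccl2, Ccr2 and Cx3cr1 by Spearman's rho. Ccl6, Ccl9, Ccr1, Adam17, Il1rl1 and F13a1 were named after their values were seen. A few genes and 1 sequence that these rules would name are not reported here.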

Additional observations from a re-analysis of the deposited data

Results flagged for a closer look

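Cx3cr1 in vehicle replicate 4 lay far below the other tumors of its group. Its level of 0.990 CPM (14 counts) was separated from the next lowest vehicle tumor, at 4.87 CPM, by a gap of 0.551 of the group's whole range of log2(CPM + 0.5), above Dixon's 95% critical value of 0.526 for 8 samples. Chance gives such a gap in about 1 of 20 groups, and both ends of 18 groups were examined here. The same tumor had the lowest scaling factor of the 16, 0.640. These CPM do not include that factor, which would raise every level of this tumor. The gap was not tested on scaled CPM. On the unscaled CPM its Ccr2 and Cx3cl1 levels were the lowest of the vehicle group, at 3.54 and 21.4 CPM.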

How the results depend on the processing

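The count of genes under an unadjusted p of 0.05, 1876 over all 16 tumors, was 691 with DESeq2, 966 with limma voom and quality weights, 640 with filterByExpr, 678 with DESeq2 and IL-33 replicate 7 left out, 659 without both IL-33 replicate 7 and vehicle replicate 4, and between 651 (without IL-33 replicate 7) and 2163 with 1 tumor left out. After adjustment it was 0 in each of these except 1 gene with DESeq2 and IL-33 replicate 7 left out. With the replicate number as a block it was 318, and 0 of the 9 genes passed. Deviations of same-numbered tumors correlated between −0.39 and 0.39, above 0.1 for 4 of 8 numbers. Of the 8 vehicle tumors, 2 correlated best with their own number. No label pairs same-numbered tumors, and 8 correlations are too few to tell whether they share more than a number. Under the block Ccl7, Ccl4 and Cx3cr1 had log2 fold changes of −0.46, −0.61 and −0.13. The largest shift there was that of Ccl12, to −1.29 (edgeR, unadjusted p = 0.0718), with Ccl8 at −1.10 and Ccl2 at −0.51.

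Of the 9 genes, 1 passed with DESeq2 (Cx3cl1), 2 with voom (Cx3cl1 and Ccl12), 1 without both tumors (Cx3cl1) and 0 to 1 with 1 tumor left out, namely Cx3cl1 without IL-33 replicate 1 or 2 or vehicle replicate 4 or 7, and Ccl12 without IL-33 replicate 3. Of all genes, 691 of 16817 passed the same threshold with DESeq2, 966 of 16817 with voom and 659 of 15744 without both tumors. The counts were 2105 of 16780, 2093 of 16796 and 2163 of 16784 without IL-33 replicate 1, 2 or 3. They were 1575 of 16773 and 1913 of 16764 without vehicle replicate 4 or 7. Pairs of genes that passed numbered 9 over all tumors, 18 without IL-33 replicate 7, 4 within the vehicle group and 3 within the IL-33 group, with 8 tumors each. No share over pairs of all genes was computed in these settings.

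Estimates near 0 changed sign. Ccl2 had 0.080 with DESeq2 and IL-33 replicate 7 left out and 0.11 without both tumors, Ccl7 −0.12 with voom and 0.45 without both, Ccl12 0.11 without both, Ccl3 0.30 with voom and 0.14 without both, and Cx3cr1 −0.089 with DESeq2 and IL-33 replicate 7 left out, −0.19 with voom and −0.24 without both. With 1 tumor left out the log2 fold change ran from −0.40 to 0.10 for Ccl2, −0.51 to 0.28 for Ccl7, −1.78 to −0.00 for Ccl12, −1.53 to −0.09 for Ccl8, −0.47 to 0.10 for Ccl3, −0.36 to 0.56 for Ccl4 and −0.08 to 0.35 for Cx3cr1. The cause of these shifts was not tested. Other pseudocounts and TMM-scaled CPM left 0 of the 9 under 0.05 in the exact permutation test. The differences of mean log2(CPM + 0.5) in that test were −0.42 for Ccl7 and −0.32 for Ccl4, opposite in sign to edgeR. Only those of Ccr2 and Cx3cr1 were above 0.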
